A study of Oryza sativa with 18 samples.

Results

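The comparison described here is the difference between 2 rice lines before any planthopper feeding, measured on 6 of the 18 arrays of the series. The members are the 3 NIL-Bph6 arrays and the 3 NIL-Bph6-RNAi arrays whose titles and source names give the time 0 h. NIL-Bph6 is a near-isogenic line with Bph6, a gene for resistance to the brown planthopper, and the labels call it resistant. NIL-Bph6-RNAi is, by its name, that line with an RNAi construct, and the labels call it susceptible. All 6 arrays hold RNA from leaf sheaths of unfed chamber-grown plants at the four-leaf stage. The description and cultivar fields name other material, 9311 for the first line and NIL-BPH9 for the second, so the groups were taken from the titles. The sources used here do not say whether the RNAi line descends from 1 transformation event. The arrays taken after 6 h and 48 h of feeding, 6 at each time, share none of these 6. They served to measure the line difference in fed plants, tested with the same estimate of spread. Because those plants were fed upon, they do not repeat the unfed comparison.

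The brown planthopper is an insect that feeds on rice phloem through the leaf sheath. Rice answers attack with diterpenoid phytoalexins, made from geranylgeranyl diphosphate by paired cyclases and then by cytochrome P450 enzymes whose genes lie in clusters. Nicotianamine binds iron and other metals for transport inside the plant and is also the precursor of the mugineic acids that grasses secrete to take up iron. Auxin, jasmonate and ethylene signalling, chitin receptors and sugar transporters are further systems studied in planthopper resistance.

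Values are log2 MAS5 signals from the Affymetrix rice array, on which a probe set is a group of several short oligonucleotides. Some probe sets match more than 1 gene. Differences are NIL-Bph6 minus NIL-Bph6-RNAi on the log2 scale, with ± SE from a limma fit and n = 3 arrays per line. Calls rest on p-values adjusted by the Benjamini-Hochberg method over all tested probe sets, with a threshold of 0.05. Of the 64 reporter and marker probe sets on the array, 1 separated the lines on all 18 arrays. At 0 h it read 12.66, 12.39 and 12.23 in NIL-Bph6-RNAi and 0.97, 4.43 and 2.11 in NIL-Bph6. The probe set of Bph6 itself was not analysed here. RNA quality was read from control transcripts as the signal of 3' probe sets minus that of 5' ones. Before feeding this was 1.78 ± 0.42 (SD, n = 3) for NIL-Bph6 and 2.39 ± 0.19 for NIL-Bph6-RNAi, so its mean moved with the line. Single arrays overlapped, with NIL-Bph6 at 2.23, 1.40 and 1.72 and NIL-Bph6-RNAi at 2.57, 2.19 and 2.42. NIL-Bph6 replicate 3 stood farthest from the other line (mean r = 0.927 across probe sets, against 0.950 and 0.953 for replicates 1 and 2).

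Before feeding, 460 of 32732 tested probe sets differed between the lines, or 1.41% of them. In NIL-Bph6, 282 were higher (0.862%) and 178 were lower (0.544%). The median difference was 1.37 among the higher and -1.91 among the lower, against 0.04 over all tested probe sets. Among the called probe sets 42 were higher by at least 3 log2 units and 53 were lower by as much. The 3 arrays of each line did not overlap for any of the 460. Non-overlap on its own was common, at 13.5% of tested probe sets with NIL-Bph6 higher and 8.59% with it lower. Exactly 1 gene was assigned to 296 of the called probe sets, which made 281 genes, 195 higher and 86 lower. A gene name was given for 35 of them, of which 25 were higher and 10 lower. The number of calls depended on single arrays: it was 282 without NIL-Bph6 replicate 1, 850 without replicate 2 and 233 without replicate 3, and it was 225 and 272 without NIL-Bph6-RNAi replicates 2 and 3. When that RNA quality measure entered the fit as a covariate, 177 were called, which ended 28 of the 41 calls of named genes and loci given below. Among named genes the calls of NAS1, NAAT1, GH3.4, AGO18, HOX1, CLA1 and SDH3-2 were left. Those of the 3 loci without a name each way were left too. The covariate ended the others, also where a paragraph below does not repeat it.

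**Figure D1:**
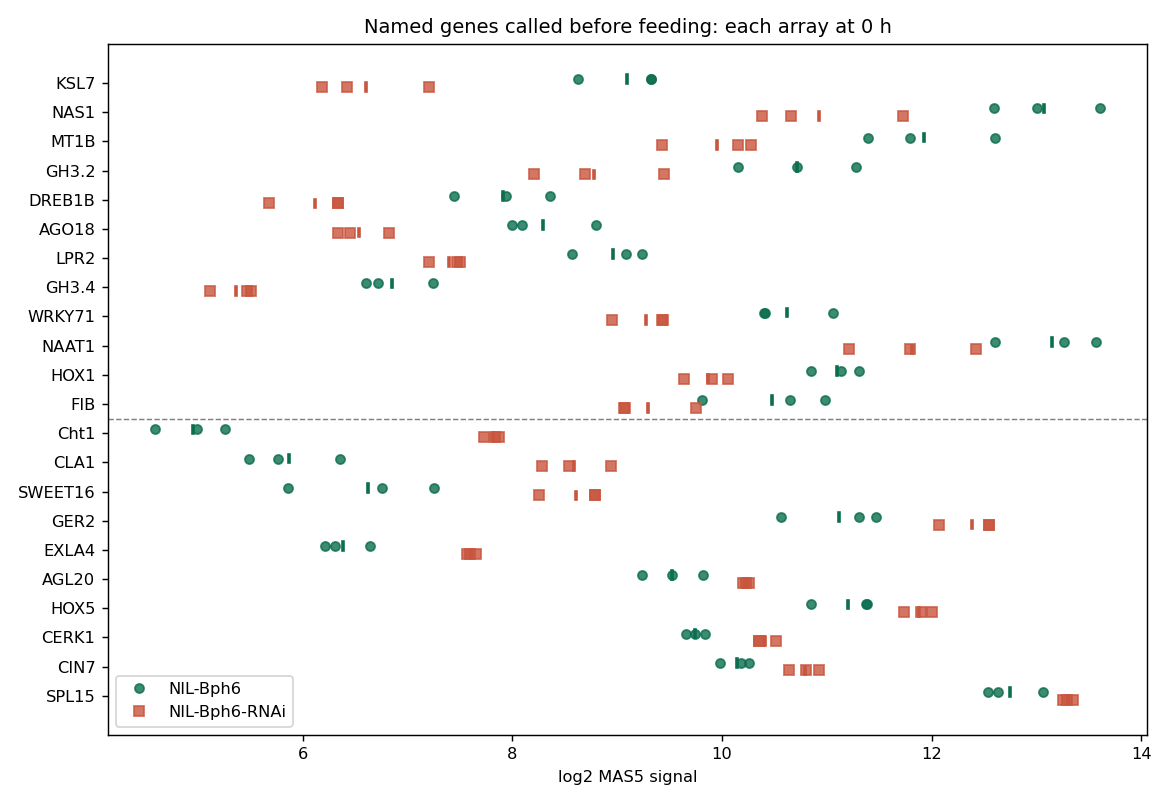
Log2 MAS5 signal (x axis) of the named genes with the largest called differences on each 0 h array, with circles for NIL-Bph6, squares for NIL-Bph6-RNAi and short bars for group means. The 12 genes above the dashed line were higher in NIL-Bph6 and the 10 below it were lower. In each row the 3 values of a line lie apart from those of the other, as the rule for choosing these genes required.

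Genes of diterpenoid phytoalexin synthesis lay higher in the unfed resistant line, though 1 of 17 passed the test. All 17 members of the list were measured, 16 had a difference above 0 and 14 did not overlap between lines with NIL-Bph6 higher. Over all 16404 measured genes, 56.5% lay above 0, 15.3% did not overlap in that direction (9.3% in the other), and 1.08% were called higher and 0.451% lower. An unadjusted p under 0.05 was found for 18.7% of these genes at 0 h (15.8% of the probe sets). These shares are also the background for the 0 h counts of the lists that follow. This list and the others were chosen with earlier results of these data known, so their counts are a description. The median difference of the phytoalexin list was 1.63, against 0.05 over all genes. The called member was KSL7 (LOC4329724), a cyclase that makes a precursor of the phytocassanes. It read 8.63, 9.32 and 9.33 in NIL-Bph6 and 7.21, 6.18 and 6.42 in NIL-Bph6-RNAi. The lowest NIL-Bph6 array was above the highest NIL-Bph6-RNAi array, and the difference was 2.49 ± 0.60, or 5.62-fold (adjusted p = 0.0492). That call ended without any 1 of the 6 arrays (adjusted p = 0.0592 to 0.228) and with the RNA quality covariate (adjusted p = 0.486).

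The other members of the pathway missed the threshold and are given as values. KSL4 (LOC4335094), the cyclase of the momilactone branch, read 7.54, 8.76 and 8.50 in NIL-Bph6 and 5.84, 5.08 and 5.53 in NIL-Bph6-RNAi, a difference of 2.79 ± 0.76 (adjusted p = 0.0928). CPS4 (LOC4335090), which feeds KSL4, differed by 2.41 ± 0.80 (adjusted p = 0.176). The P450 genes of the same chromosome 4 cluster, CYP99A2 (LOC4335096) and CYP99A3 (LOC4335091), differed by 2.23 and 1.65, and the momilactone synthase MAS (LOC4335093) by 1.56. On chromosome 2, CYP71Z7 (LOC4329726) read 11.47, 12.37 and 12.60 against 9.78, 8.95 and 9.52, a difference of 2.73 ± 0.70 (adjusted p = 0.0677). Its neighbours CYP76M6, CYP76M5, CYP76M8 and CYP71Z6 differed by 2.03, 1.24, 0.69 and 0.49. KSL5, in the same cluster, was the member below 0, at -0.24. KSL10 (LOC4352248), the cyclase of the oryzalexin branch, differed by 2.56 and CPS2 (LOC9266189), which supplies the phytocassane branch, by 1.63. On chromosome 6, the kaurene oxidase family genes KOL5 and CYP701A8 differed by 1.06 and 0.97 and by 0.70 the gene that the RefSeq table places there and lists as CYP76M7 (LOC4341447). Because many members lie side by side and related genes may share probe sequence, they are not independent measurements. The list's median was 1.36 to 1.84 with single arrays left out.

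The same list showed no such offset in the arrays taken during feeding. Its median line difference was 0.08 at 6 h and -0.33 at 48 h, with 0 of 17 members called higher by limma at either time (and 0 at an unadjusted p under 0.05, against 4.9% and 18.8% of all genes) and 1 called lower at 48 h. KSL7 averaged 6.60 ± 0.54 (SD, n = 3) in unfed NIL-Bph6-RNAi, 8.57 ± 0.46 at 6 h and 8.83 ± 0.81 at 48 h. In NIL-Bph6 its means were 9.09 ± 0.40, 8.45 ± 1.64 and 9.18 ± 0.43. The unfed RNAi arrays were thus the low group for this gene, and the line differences of -0.11 at 6 h and 0.35 at 48 h did not pass the test. A list that joins the plastid terpenoid precursor (MEP) pathway and gibberellin synthesis had 0 of 10 members called by limma. It had 1 at an unadjusted p under 0.05 and a median of 0.10. Its lowest p-values belonged to the gibberellin oxidase GA20OX3, at 0.46 (adjusted p = 0.242), and to CYP701A8 again. CLA1, a gene of the MEP pathway, goes by a name that this list does not hold. Its called probe set was lower, by -2.72, and its brighter one was at 0.63 (adjusted p = 0.082), as given with the probe sets of other genes that disagree.

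**Figure D2:**
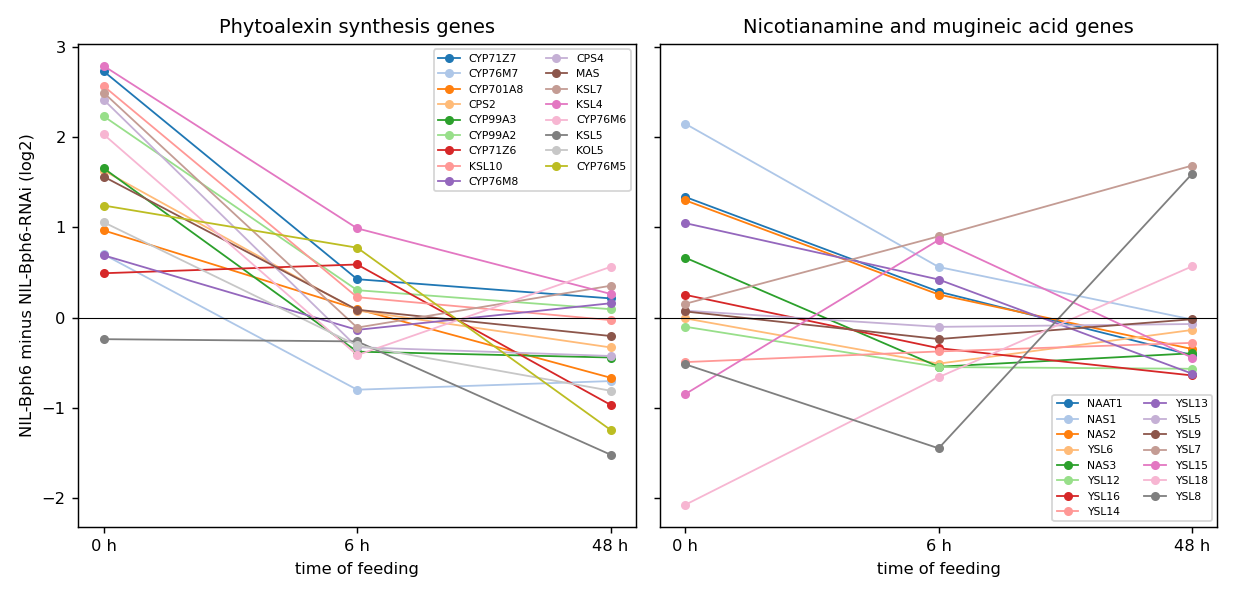
Line difference (NIL-Bph6 minus NIL-Bph6-RNAi, log2, y axis) at 0 h, 6 h and 48 h of feeding for the 17 phytoalexin synthesis genes and for the 15 measured genes of nicotianamine synthesis, its aminotransferase and YSL transport, 1 line per gene. Of the phytoalexin genes 16 lie above 0 at 0 h and their median is near 0 at 6 h, whereas 9 of the 15 metal genes lie above 0 at 0 h, led by NAS1.

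Transcripts of the nicotianamine genes NAS1 and NAAT1 were higher in unfed NIL-Bph6. NAS1 (LOC4332608), a nicotianamine synthase, read 13.61, 12.60 and 13.01 in NIL-Bph6 and 11.73, 10.65 and 10.38 in NIL-Bph6-RNAi. The groups lay apart, and the difference was 2.15 ± 0.34, or 4.43-fold (adjusted p = 0.00216). NAAT1 (LOC9267778), the aminotransferase that starts mugineic acid synthesis from nicotianamine, read 13.57, 12.61 and 13.26 against 12.42, 11.21 and 11.79, a difference of 1.34 ± 0.30 (adjusted p = 0.0322). In NAS2 (LOC4332607), which lies beside NAS1 and may share probe sequence with it, the values were 13.08, 11.81 and 12.65 against 11.72, 11.12 and 10.80, a difference of 1.30 ± 0.31 that missed the threshold (adjusted p = 0.0501). NAS3 differed by 0.66 (adjusted p = 0.291), and YSL13, of a family that carries metal-nicotianamine complexes, by 1.05 (adjusted p = 0.0957). The iron and metal list as a whole was not shifted: 2 of 41 measured genes were called higher and 0 lower, with a median of 0.08. The iron transporter IRT1 was at -0.77 (adjusted p = 0.0769) and YSL18 at -2.07 (adjusted p = 0.284). The NAS1 call held in each alternative run, whereas that of NAAT1 ended without NIL-Bph6 replicate 1 or 3 and without NIL-Bph6-RNAi replicate 2 or 3 (adjusted p = 0.101 to 0.195).

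At the later times the line differences of NAS1 and NAAT1 did not pass the test. NAS1 averaged 13.07 ± 0.51 (SD, n = 3), 12.76 ± 0.14 and 13.03 ± 0.46 in NIL-Bph6 at 0 h, 6 h and 48 h, and 10.92 ± 0.72, 12.20 ± 0.51 and 13.05 ± 0.24 in NIL-Bph6-RNAi. Its line difference was 0.56 at 6 h (adjusted p = 0.58) and -0.02 at 48 h (adjusted p = 0.98), and that of NAAT1 was 0.29 and -0.42. MT1B (LOC4332487), a metallothionein that binds metals, showed a similar course. It read 11.79, 11.39 and 12.60 in unfed NIL-Bph6 and 9.42, 10.28 and 10.15 in unfed NIL-Bph6-RNAi, a difference of 1.98 ± 0.37 (adjusted p = 0.0106), and differed by -0.02 at 6 h and -0.21 at 48 h. It was the 1 called gene of 7 metallothioneins, whose median was 0.07. The copper transporter COPT1 (LOC4324610), which falls outside the rule for named genes and was added after its values were seen, read 9.98, 9.74 and 9.99 against 8.92, 8.73 and 9.01. Its difference was 1.02 ± 0.17 at 0 h (adjusted p = 0.00395) and -0.68 at 48 h (adjusted p = 0.015). MT1B's call ended without NIL-Bph6 replicate 3 (adjusted p = 0.0751) or NIL-Bph6-RNAi replicate 1 (adjusted p = 0.056), and the covariate ended it and that of COPT1 (adjusted p = 0.196 and 0.0699).

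Of 23 measured phosphate supply genes 1 was called higher and 0 lower (median 0.20). It was LPR2 (LOC4326011), related to multicopper oxidases that in Arabidopsis act in the root response to low phosphate. It read 9.08, 8.56 and 9.24 in NIL-Bph6 and 7.50, 7.20 and 7.47 in NIL-Bph6-RNAi, a difference of 1.57 ± 0.31 (adjusted p = 0.0155). The phosphate transporter Pht1;12 was at -1.76 (adjusted p = 0.059). GLN1-2 (LOC4332108), a cytosolic glutamine synthetase, was the 1 called gene of 14 in nitrogen uptake and assimilation (median 0.44), with 14.14, 13.72 and 14.33 against 13.57, 12.82 and 13.15 and a difference of 0.88 ± 0.20 (adjusted p = 0.0384). The gap between its lowest NIL-Bph6 value and its highest NIL-Bph6-RNAi value was small. The LPR2 call ended without NIL-Bph6 replicate 1 or 3 or NIL-Bph6-RNAi replicate 2 (adjusted p = 0.0703 to 0.093), and that of GLN1-2 without these or NIL-Bph6-RNAi replicate 3 (adjusted p = 0.116 to 0.232).

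Auxin genes gave 3 higher calls and 0 lower among 54 measured, against 1.08% higher and 0.451% lower over all genes. The list median was 0.11. GH3.2 (LOC4326893), an enzyme that joins auxin to amino acids and so lowers free auxin, read 11.28, 10.15 and 10.72 in NIL-Bph6 and 9.44, 8.21 and 8.69 in NIL-Bph6-RNAi. It was higher by 1.94 ± 0.40 (adjusted p = 0.0201). A second gene of the family, GH3.4 (LOC4339234), read 7.24, 6.72 and 6.60 against 5.46, 5.51 and 5.12, a difference of 1.49 ± 0.30 (adjusted p = 0.0178). GH3.4 was higher again at 48 h, by 1.29 (adjusted p = 0.0091), while GH3.2 was not, at -0.23. IAA1 (LOC4323871), a repressor of auxin response, was higher by 0.62 ± 0.15 (adjusted p = 0.0446), on values of 11.85, 11.76 and 12.01 against 11.13, 11.33 and 11.30. Outside the list, FIB (LOC4325198), a tryptophan aminotransferase of auxin synthesis, read 10.98, 9.81 and 10.64 against 9.75, 9.06 and 9.07, a difference of 1.18 ± 0.28 (adjusted p = 0.0495). The lines were barely apart for FIB. Leaving out NIL-Bph6 replicate 1 or NIL-Bph6-RNAi replicate 2 or 3 ended all 4 auxin calls, and leaving out NIL-Bph6 replicate 3 ended those of GH3.2, IAA1 and FIB (adjusted p up to 0.131 for GH3.2, 0.099 for GH3.4, 0.213 for IAA1 and 0.237 for FIB). IAA1's call also ended without NIL-Bph6-RNAi replicate 1 (adjusted p = 0.136).

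HOX1 and AGO18 had the lowest adjusted p-values of the 12 named genes with the largest higher differences. HOX1 (LOC4349388), a homeodomain-leucine zipper factor, read 11.13, 10.85 and 11.30 in NIL-Bph6 and 10.06, 9.64 and 9.90 in NIL-Bph6-RNAi. The difference was 1.23 ± 0.15 (adjusted p = 0.000232). AGO18 (LOC4343201), an argonaute protein of antiviral defence, read 8.0, 8.09 and 8.80 against 6.34, 6.45 and 6.82, a difference of 1.76 ± 0.24 (adjusted p = 0.00056). Both calls held in each alternative run. AGO18 was still higher at 6 h, by 1.41 (adjusted p = 0.0057), and not at 48 h, at 0.22. HOX1 differed by 0.09 and -0.09 at these times. AGO18 was the 1 called gene of 26 in the RNA silencing machinery, whose median was 0.06.

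WRKY71 (LOC4328512), a factor of defence gene regulation, read 10.41, 10.40 and 11.06 in NIL-Bph6 and 9.42, 8.95 and 9.44 in NIL-Bph6-RNAi, a difference of 1.35 ± 0.25 (adjusted p = 0.0105). It was 1 of 6 WRKY genes measured under such a name, all 6 of which had a difference above 0 (median 0.68). WRKY24 was at 1.75 (adjusted p = 0.101). DREB1B (LOC4347618), a factor of the cold response, read 7.94, 7.44 and 8.36 against 5.67, 6.33 and 6.33, a difference of 1.80 ± 0.35 (adjusted p = 0.0137). It was the 1 called gene of 9 cold response factors (median 0.35), and the related CBF3 (LOC4347620) was at 2.19 (adjusted p = 0.0887). Both factors stood far higher in both lines after feeding. At 6 h the mean of WRKY71 was 12.50 ± 0.23 (SD, n = 3) for NIL-Bph6 and 12.46 ± 0.11 for NIL-Bph6-RNAi, and that of DREB1B was 11.57 ± 0.53 and 11.75 ± 0.21, so the line differences there were 0.03 and -0.18. Without NIL-Bph6 replicate 3 the calls of WRKY71 and DREB1B ended (adjusted p = 0.0751 and 0.0917). They ended too without NIL-Bph6-RNAi replicate 2 for WRKY71 (adjusted p = 0.0794), and without NIL-Bph6 replicate 1 or NIL-Bph6-RNAi replicate 1 for DREB1B (adjusted p = 0.0544 and 0.0645).

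NINJA1 and EIL1 were the called genes of the jasmonate and ethylene lists. NINJA1 (LOC4339584), an adaptor that in Arabidopsis links the JAZ repressors of jasmonate response to a co-repressor, read 11.56, 11.54 and 11.60 in NIL-Bph6 and 10.99, 11.06 and 11.09 in NIL-Bph6-RNAi. It was higher by 0.52 ± 0.09 (adjusted p = 0.00348), and a second probe set gave 0.88 ± 0.14 (adjusted p = 0.0034). The difference recurred at 6 h, by 0.74 (adjusted p = 0.00012), and at 48 h, by 0.60 (adjusted p = 0.00055). It was the 1 called gene of 35 in jasmonate synthesis and signalling (median 0.09). EIL1 (LOC107276358), a factor of ethylene response, read 13.70, 13.72 and 13.97 against 13.34, 13.20 and 13.43, a difference of 0.48 ± 0.08 (adjusted p = 0.00573), and was the 1 called gene of 9 in the ethylene list (median 0.17). A second, dimmer EIL1 probe set differed by 0.03. Another gene listed as EIL1 (LOC4332697) was at 0.855 (adjusted p = 0.223). ACS2 (LOC4336750), of ethylene synthesis and added after its values were seen, read 8.24, 8.17 and 8.13 against 6.14, 6.17 and 7.41, a difference of 1.61 ± 0.39 that missed the threshold (adjusted p = 0.0539). Without NIL-Bph6-RNAi replicate 2 the EIL1 call ended (adjusted p = 0.051). The RNA quality covariate ended the 0 h calls of NINJA1 and EIL1 (adjusted p = 0.0603 and 0.102). Of 15 salicylate signalling genes 0 were called by limma, 4 had an unadjusted p under 0.05 (18.7% of all genes did) and 14 lay above 0 (median 0.30). The salicylate receptor family genes NPR4 (LOC4327365) and NH1 were at 0.72 (adjusted p = 0.0869) and 0.52 (adjusted p = 0.124). The 27 genes of abscisic acid and dehydration also gave 0 calls, with 3 at an unadjusted p under 0.05 and a median of 0.16. Their lowest p-values were those of SAPK6 at 0.41 (adjusted p = 0.183) and RAB16C at 0.71 (adjusted p = 0.284).

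CERK1, Cht1 and GER2, each the 1 called gene of its list, were lower in unfed NIL-Bph6. CERK1 (LOC4346173), a receptor kinase for chitin, read 9.66, 9.84 and 9.74 in NIL-Bph6 and 10.51, 10.35 and 10.35 in NIL-Bph6-RNAi. The difference was -0.66 ± 0.12 (adjusted p = 0.00722), followed by -0.49 at 6 h (adjusted p = 0.068) and -0.67 at 48 h (adjusted p = 0.002). It was the 1 called gene of 8 in its list (median -0.15), and a second gene listed as CERK1 (LOC9270778) differed by 0.00. The chitinase gene Cht1 at LOC4338719 read 4.59, 5.26 and 4.99 in NIL-Bph6, under the overall median signal of 5.78, and 7.83, 7.72 and 7.87 in NIL-Bph6-RNAi. Its difference of -2.86 ± 0.65 (adjusted p = 0.0362) recurred at 6 h with -3.67 (adjusted p = 0.0082) and at 48 h with -2.88 (adjusted p = 0.0077). The other 10 chitinase and pathogenesis-related genes measured were not called, and the list median was 0.63. Among these 10, a second and brighter gene listed as Cht1 (LOC4342115) was at 0.70 (adjusted p = 0.365). GER2 (LOC4344839), a germin-like protein, read 11.47, 11.31 and 10.57 against 12.55, 12.55 and 12.07, a difference of -1.27 ± 0.27 (adjusted p = 0.0254), as the 1 called gene of 9 (median -0.48). Cht1's call ended without each array but NIL-Bph6 replicate 2 (adjusted p = 0.0925 to 0.136), and that of GER2 without NIL-Bph6 replicate 3 or NIL-Bph6-RNAi replicate 1 or 2 (adjusted p = 0.0871 to 0.158). The RNA quality covariate ended the 0 h calls of CERK1, Cht1 and GER2 (adjusted p = 0.0688, 0.0809 and 0.133).

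The disease resistance list was drawn by name patterns and holds RGA1, XA5, STV1, Pi21, PID and SWEET11. Whether each of them acts in resistance was not checked, and SWEET11 is also in the sugar and phloem lists. Of these 6 genes 0 were called and 1 had an unadjusted p under 0.05. All 6 lay below 0, with a median of -0.36 (-0.16 without NIL-Bph6 replicate 3 and -0.18 without NIL-Bph6-RNAi replicate 2), and Pi21 was at -0.40 (adjusted p = 0.30) and STV1 at -0.31 (adjusted p = 0.37). Over all genes 18.7% had an unadjusted p under 0.05. In the peroxidase and redox list 0 of 26 were called and 8 had an unadjusted p under 0.05, with a median of 0.07. GST1 was at 0.71 (adjusted p = 0.0977) and PRX112 at 0.66 (adjusted p = 0.118). Calcium signalling gave 0 calls of 79, 15 at an unadjusted p under 0.05 and a median of 0.06. Its lowest p-values were those of the calmodulin-like genes CML5 at 1.61 (adjusted p = 0.07) and CML9 at -0.74 (adjusted p = 0.103).

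The called sugar and cell wall genes were all lower in unfed NIL-Bph6. SWEET16 (LOC4332795), a sugar transporter, read 7.25, 6.75 and 5.86 in NIL-Bph6 and 8.79, 8.79 and 8.25 in NIL-Bph6-RNAi, a difference of -1.99 ± 0.30 (adjusted p = 0.00168). It was lower again by 1.91 at 6 h (adjusted p = 0.003) and by 1.33 at 48 h (adjusted p = 0.0082). CIN7 (LOC4346527), a cell wall invertase, read 10.18, 10.26 and 9.98 against 10.92, 10.80 and 10.64, a difference of -0.65 ± 0.11 (adjusted p = 0.00502). These were the 2 lower calls among 26 sugar transporters, invertases and sucrose synthases, with 0 higher and a median of 0.04. Cellulose synthase and wall-loosening genes gave 1 lower call and 0 higher among 59, and 49 of the 59 lay below 0, against 43.5% over all genes (median -0.41). EXLA4 (LOC4342109), an expansin-like protein, was the called gene, with 6.31, 6.64 and 6.21 against 7.59, 7.65 and 7.57 and a difference of -1.22 ± 0.28 (adjusted p = 0.0409). It did not differ by the test at 6 h (0.04) or 48 h (0.46). The wall list's median turned to 0.15 at 6 h and 0.57 at 48 h, when 20 members were called higher. Its 0 h median was -0.19 without NIL-Bph6 replicate 3, -0.22 without NIL-Bph6-RNAi replicate 2 and -0.47 to -0.39 without any other array. The EXLA4 call ended without each array but NIL-Bph6 replicate 2 (adjusted p = 0.10 to 0.189), and the covariate ended those of SWEET16 and CIN7 (adjusted p = 0.0725 and 0.095).

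Phenylpropanoid and lignin genes gave 0 calls of 26, with 7 at an unadjusted p under 0.05, against 18.7% of all genes. Their median was -0.24, and -0.01 without NIL-Bph6 replicate 3. The ligase 4CL5 was at 1.11 (adjusted p = 0.0623) and CAD7 at -2.0 (adjusted p = 0.123). Among 56 flowering and homeobox factors HOX1 was the 1 higher call and there were 2 lower (median 0.03). AGL20 (LOC4331445), a MADS-box factor, read 9.52, 9.23 and 9.82 in NIL-Bph6 and 10.26, 10.23 and 10.20 in NIL-Bph6-RNAi, a difference of -0.70 ± 0.14 (adjusted p = 0.0139) that recurred with -1.11 at 6 h and -1.03 at 48 h. HOX5 (LOC4345576) was lower by 0.68, that is -0.68 ± 0.16 (adjusted p = 0.0392), and the SBP-box factor SPL15 (LOC4346023) was at -0.55 ± 0.13 (adjusted p = 0.0414). These calls depended on single arrays: HOX5's ended without each array but NIL-Bph6 replicate 2, and SPL15's without each but NIL-Bph6 replicate 1 (adjusted p up to 0.211 and 0.229). AGL20's ended without NIL-Bph6 replicate 1 or NIL-Bph6-RNAi replicate 1 or 2 (adjusted p = 0.0515 to 0.0643). With the RNA quality covariate the calls of AGL20, HOX5 and SPL15 ended (adjusted p = 0.234, 0.291 and 0.397).

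The remaining named genes fall outside the rule for named genes and are given because they complete the 35. Of these, 5 belong to stress signalling and protein quality control. The protein phosphatases PP2C61 and PP2C32 were higher by 1.17 ± 0.25 (adjusted p = 0.0239) and 1.11 ± 0.25 (adjusted p = 0.0352), the A20/AN1 zinc-finger proteins SAP11 and SAP17 by 1.11 ± 0.23 (adjusted p = 0.0198) and 1.09 ± 0.26 (adjusted p = 0.0463), and BZIP50, a factor of the endoplasmic reticulum stress response, by 0.83 ± 0.19 (adjusted p = 0.0427). A ceramidase gene (LOC4326680) was higher by 0.49 ± 0.10 (adjusted p = 0.0266). These 6 calls each ended without NIL-Bph6 replicate 1 or 3, and all but that of SAP11 without NIL-Bph6-RNAi replicate 2 or 3 (adjusted p = 0.0505 to 0.213). Those of PP2C32, SAP11, SAP17 and BZIP50 also ended without NIL-Bph6-RNAi replicate 1 (adjusted p = 0.0612 to 0.114). The mitochondrial genes SDH3-2, a subunit of succinate dehydrogenase, and VDAC2, an outer membrane channel, were higher by 1.16 ± 0.15 (adjusted p = 0.000286) and 0.45 ± 0.08 (adjusted p = 0.00521). SDH3-2 (LOC4343404) read 10.12, 10.02 and 10.12 against 8.92, 8.98 and 8.88, with replicates close together in both lines. Both were higher again at 6 h, by 1.61 and 0.39, and at 48 h, by 1.88 and 0.45 (adjusted p up to 0.024). The 0 h call of VDAC2 ended with the RNA quality covariate (adjusted p = 0.159), while that of SDH3-2 held.

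**Figure D3:**
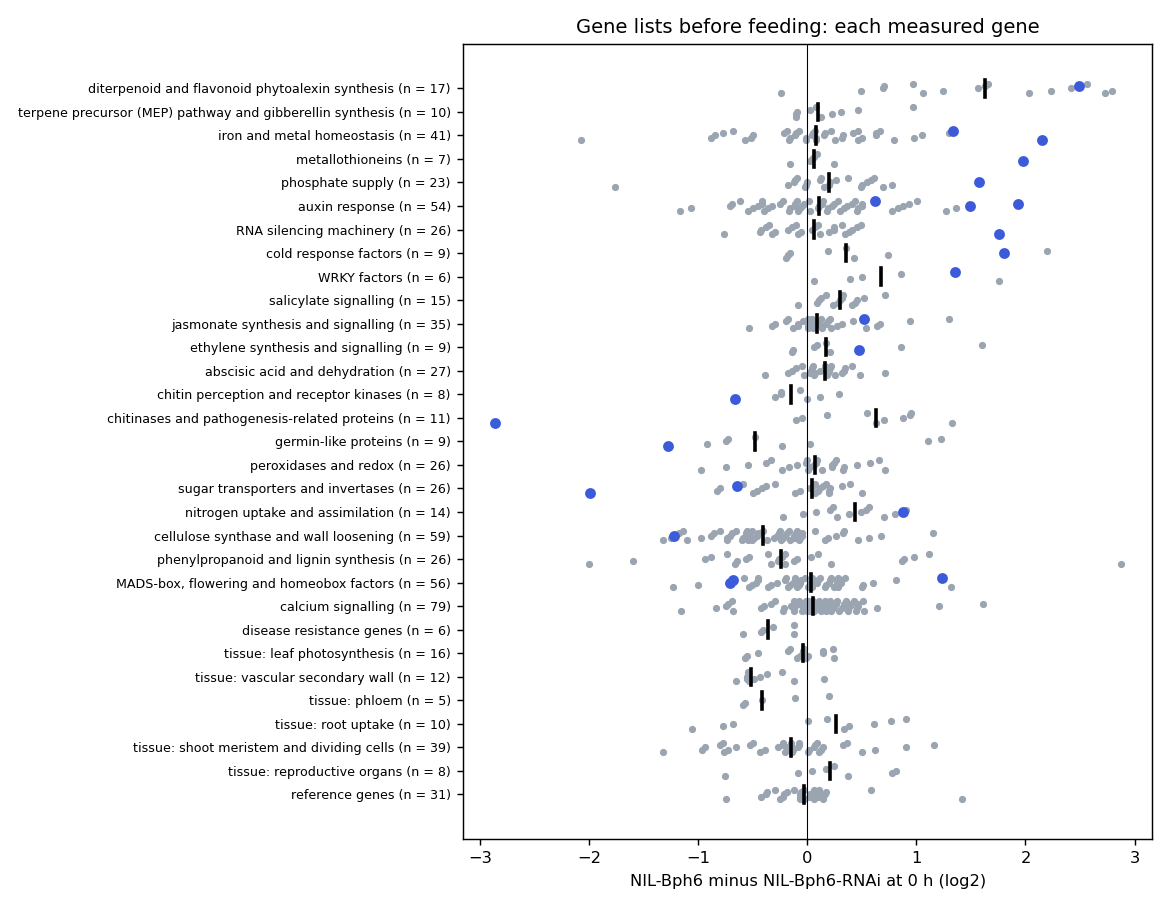
Difference between the lines at 0 h (x axis, log2, NIL-Bph6 minus NIL-Bph6-RNAi) of each measured gene in the 31 lists (rows), with large blue points for called genes, grey points for the others and a black bar for each list's median. The phytoalexin list has the highest median, at 1.63, and the reference genes centre on -0.03. The lists were chosen with earlier results of these data known.

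Marker lists of tissues that a leaf sheath sample could hold in varying amounts gave 0 calls each. Among 16 photosynthesis genes 2 had an unadjusted p under 0.05 (18.7% of all genes did), and the median was -0.04. The summed linear signal of that list's 17 genes was 170956 to 180058 in NIL-Bph6 and 180960 to 193058 in NIL-Bph6-RNAi, without overlap. GSA (LOC4346136), of chlorophyll synthesis, was at -0.45 (adjusted p = 0.0502) and PORA at -0.55 (adjusted p = 0.126). Of 12 genes of vascular secondary walls 11 lay below 0 and 2 had an unadjusted p under 0.05, with a median of -0.51 and sums of 12960 to 26317 against 25106 to 30211. NIL-Bph6 replicate 3 stood apart in this list, with a mean log2 signal of 9.55 against 10.30 to 10.57 on the other 5 arrays, and without it the median was -0.16. GT43E and IRX14, of xylan synthesis, were at -0.55 (adjusted p = 0.125) and -0.37 (adjusted p = 0.281). The 5 phloem genes had a median of -0.41, 0 at an unadjusted p under 0.05 and sums of 3102 to 4138 against 3537 to 4808, and the median was -0.66 to -0.22 with single arrays left out. FTIP1 was at -0.57 and SWEET11 at -0.59. In bulk tissue, fewer cells of a type and less RNA per cell cannot be told apart, and the part of tissue make-up in the wall and phytoalexin values was not tested.

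Root uptake genes, 10 measured, had a median of 0.26 and 5 at an unadjusted p under 0.05, against 18.7% of all genes. Their sums were 18102 to 21561 against 17596 to 19058. The list holds IRT1, given above, and HAK1 at 0.76 (adjusted p = 0.204). Genes of the meristem and dividing cells, 39 measured, had a median of -0.15, 4 at an unadjusted p under 0.05 and overlapping sums of 35363 to 48695 and 38321 to 49978. GRF10 was at -0.93 and H2B.10 at 0.91, both uncalled (adjusted p = 0.23 and 0.233). Of 18 reproductive organ genes 12 lay under the overall median signal in the unfed arrays. Their sums were 1890 to 2100 and 1752 to 1883, 1 of 8 tested had an unadjusted p under 0.05, and MADS58 and GLUB-5 were at 0.82 and 0.77. Reference genes gave 0 calls of 31 and 4 at an unadjusted p under 0.05, with GAPC3 at 0.58 (adjusted p = 0.0931) and ADF10 at 1.42 (adjusted p = 0.132).

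The largest differences belonged to genes known here only by locus number. LOC4339508, on chromosome 5, read 9.39, 9.68 and 9.65 in NIL-Bph6 and 1.07, 0.20 and 1.79 in NIL-Bph6-RNAi, a difference of 8.55 ± 0.62 (adjusted p = 5.07e-07). LOC9268712, also on chromosome 5, read 7.84, 7.86 and 7.72 against 1.89, 0.58 and 0.50 and differed by 6.82 ± 0.60. LOC4334083, on chromosome 3, read 9.09, 9.0 and 8.32 against 3.79, 0.00 and 3.92 and differed by 6.23 ± 1.06. In the lower group of each the signals lay near the bottom of the scale, where they are imprecise, so the size of these differences is uncertain. In the other direction, LOC4338784 on chromosome 5 read 2.17, 4.53 and 0.49 in NIL-Bph6 and 8.96, 9.71 and 9.27 in NIL-Bph6-RNAi, a difference of -6.92 ± 0.86. LOC4346152 on chromosome 8 read 2.99, 2.37 and 0.44 against 8.38, 8.26 and 8.29 and differed by -6.38 ± 0.67. All of these, and LOC4343954 below, were called in the same direction at 6 h and 48 h and in each alternative run.

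Probe sets of 1 gene did not always agree. LOC4343954, on chromosome 7, had the largest lower difference among probe sets with 1 gene, with 0.08, 0.00 and 1.17 in NIL-Bph6 and 9.81, 9.59 and 9.80 in NIL-Bph6-RNAi (-9.31 ± 0.59, adjusted p = 1.15e-07). Of its 6 tested probe sets 5 were called lower, by amounts from -3.59 to -9.31. The sixth read 11.88, 11.99 and 11.90 in NIL-Bph6 and 11.99, 11.96 and 11.92 in NIL-Bph6-RNAi, a difference of -0.03 ± 0.09. CLA1 (LOC4338768), a synthase at the start of the plastid terpenoid precursor pathway, read 5.49, 6.36 and 5.76 in NIL-Bph6 and 8.94, 8.54 and 8.29 in NIL-Bph6-RNAi on the called probe set, a difference of -2.72 ± 0.35 (adjusted p = 0.000344) that recurred at 6 h (-2.63) and 48 h (-3.16). Its brighter probe set read 10.48, 10.34 and 10.66 against 9.94, 9.97 and 9.67 and leaned the other way, by 0.63 ± 0.17 (adjusted p = 0.082). LOC4338784 had a second probe set at -1.52 ± 0.33 (adjusted p = 0.0303) that did not pass the test at 6 h or 48 h, and WRKY71 a dimmer one at 0.79 (adjusted p = 0.136). The cause of such disagreement was not tested.

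Some of the line differences recorded before feeding were called again on the later arrays, and others were not. Of the 282 probe sets higher at 0 h, 53 were called higher at 6 h (18.8% of them, and 51.5% of the 103 called higher there), 81 at 48 h (28.7%, and 2.81% of 2878) and 51 at both. The background of higher calls was 0.315% at 6 h and 8.79% at 48 h. Of the 178 lower at 0 h, 97 were called lower at 6 h (54.5% of them, and 54.2% of 179), 117 at 48 h (65.7%, and 7.45% of 1571) and 89 at both, over backgrounds of 0.547% and 4.8%. The median of the higher set went from 1.37 at 0 h to 0.40 at 6 h and 0.22 at 48 h, and that of the lower set from -1.91 to -1.49 and -1.27. Calls in the opposite direction numbered 0 at 6 h for both sets, and 10 and 7 at 48 h. Of the 42 probe sets higher by at least 3 log2 units 28 were called at all 3 times, as were 44 of the 53 lower by as much. Among the named genes NINJA1, SDH3-2 and VDAC2 were higher and Cht1 (LOC4338719), CLA1, SWEET16 and AGL20 lower at all 3 times.

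**Figure D4:**
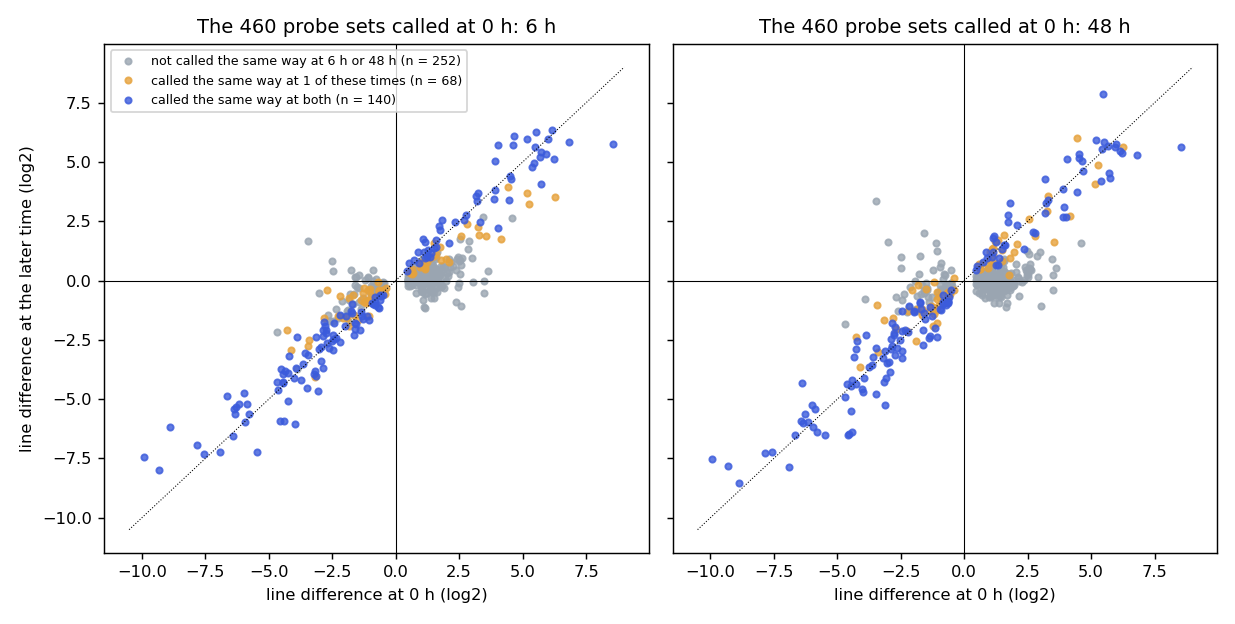
Line difference at 6 h (left) and 48 h (right) of feeding on the y axis against that at 0 h on the x axis, both log2, for the 460 probe sets called at 0 h, coloured by whether they were called in the same direction later; the dotted line marks equal differences. The 140 called at all 3 times lie along that line, while the others were called in the same direction at 1 or neither of the later times, and many of the grey points lie near 0 on the y axis with a 0 h difference above 0.

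Called genes were unevenly placed over the chromosomes of the RefSeq gene table. On chromosome 5, 58 of 1369 measured genes were called higher (4.24%) and 25 lower (1.83%). Chromosome 3 held 29 higher and 27 lower of 2288, and chromosome 8 held 9 higher and 18 lower of 1087. These 3 chromosomes had the highest shares of called genes and were picked for that, so the shares that follow are a description. Together they carried 166 of the 281 called genes (59.1%), against 28.4% of the genes not called. The share was 79.7% for the 74 genes called at all 3 times and 51.7% for the other 207. A further called gene stood among the 5 measured neighbours on either side for 38.1% of called genes and for 13% of the others. It did so for 62.2% of the genes called at all 3 times.

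**Figure D5:**
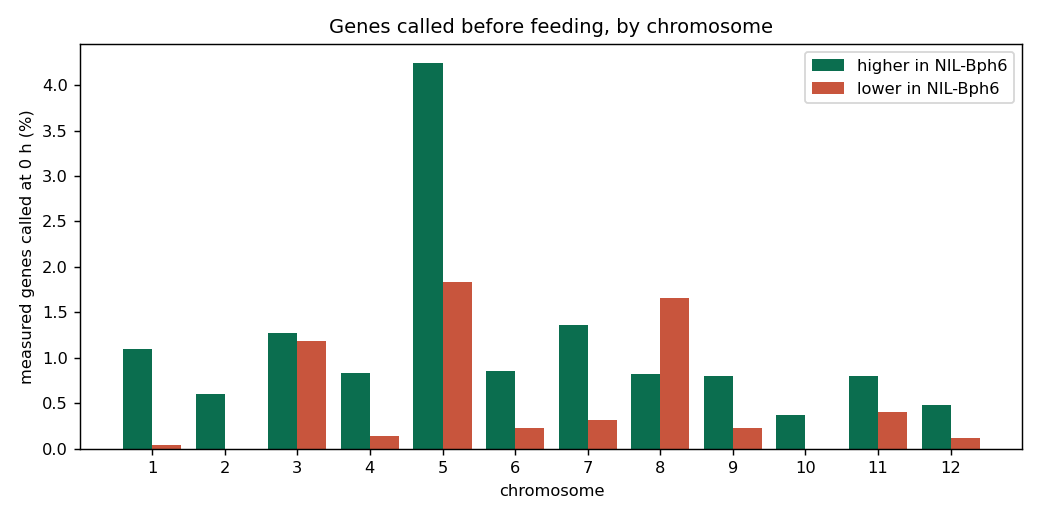
Percent of measured genes on each rice chromosome (x axis) that were called higher or lower in NIL-Bph6 at 0 h. Chromosome 5 has the tallest bars in both directions, at 4.24% and 1.83%, and chromosome 8 is the one where lower calls outnumber higher ones, with 1.66% against 0.828%.

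The longest runs of neighbouring called genes lay on chromosome 5. From LOC4338716 to LOC4338729, 9 of 11 measured genes were called, 8 lower and 1 higher, and 7 of them at all 3 times. This run holds Cht1, and LOC4338726 in it read 11.83, 11.70 and 11.92 in NIL-Bph6 and 12.73, 12.64 and 12.53 in NIL-Bph6-RNAi, a difference of -0.82 ± 0.08 (adjusted p = 3.15e-05). The higher member, LOC4338721, read 8.13, 7.79 and 7.68 against 5.01, 2.48 and 3.67. From LOC4339498 to LOC4339505, all 7 measured genes were called higher, 6 of them at all 3 times. LOC4339505 read 11.39, 11.28 and 11.85 against 5.15, 5.20 and 6.23, a difference of 5.98 ± 0.42, and LOC4339501 read 11.03, 10.62 and 11.71 against 4.45, 5.28 and 5.82, a difference of 5.93 ± 0.50. The others in that run differed by 3.45 to 8.55. Another run, from LOC4339139 to LOC4339149, had 5 higher calls among 7 measured genes, led by LOC4339148 at 3.93 ± 0.29. Differences between the lines in genome segments beside the construct cannot be told apart from its effect in this design, and the description fields, which name different cultivars for the lines, bear on the same point.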

How the data were processed

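Leaf sheath RNA was hybridised to 18 Affymetrix rice arrays, 3 for each of 6 groups, by the submitters. The authors deposited 1 table of log2 MAS5 signals; MAS5 is named per the submitters' processing notes, without a version, and the log base and scaling were read from the values (array medians 5.67 to 6.01). Control probe sets (123) were left out, and of the other 57258 a probe set was tested if its signal passed the median of all values, 5.78, on 3 or more arrays, which left 32732. In R 4.3.3, limma 3.58.1 fitted 6 group means over all 18 arrays with an intensity trend, and p-values were adjusted over all 32732 (threshold 0.05). A platform annotation gave 1 gene for 22436 probe sets, 95 had several and 34850 none; all 17905 genes were found in the RefSeq table (assembly ASM3414082v1), used for names and gene order alone. Lists used the brightest probe set of each of 16404 genes. Named genes were the 12 largest higher and up to 12 largest lower called differences without overlap, up to 6 called members per list or else the 2 members with the lowest p, and 3 loci without a name each way. The comparison, the members and the lists were chosen with earlier results of these data known, and list patterns were tightened after the annotation was seen; 1 ambiguous gene name was dropped from the metal list after values had been seen. In simulated data for this comparison, over 32732 probe sets, 52 of 100 changes of 1 log2 unit and 76 of 100 of 2 were recovered, with 6 false calls. Each probe set was simulated with independent normal noise of equal spread on every array. Uneven arrays and the RNA quality difference between the lines were not simulated, so these rates need not hold for the real data. The replicates' origin in separate plants is given by the labels alone. Same-numbered arrays of the lines deviated together with r = 0.06, 0.08 and 0.05, so the numbers were not taken as pairs. Alternatives covered scaling, filters, the trend, a block, offset, weights, a covariate and each array left out. The number of arrays limits the precision. No sequences are shown because no sequence table was used here. Python 3.11.15, pandas 2.3.3, numpy 2.4.6 and matplotlib 3.10.9 served for tables and figures.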

Additional observations from a re-analysis of the deposited data

Results flagged for a closer look

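For 17 of the 41 named genes and loci called at 0 h, the line difference at 48 h departed from that at 0 h by limma's test of the difference itself. Some genes given above but not called at 0 h also passed it, such as GRF10 at 3.90 (adjusted p = 0.0038) and NH1 at -1.13 (adjusted p = 0.00669). The share of all tested probe sets that passed is not given here. Both times' arrays enter this test, so the 0 h arrays that gave the call at 0 h are used again, and genes chosen for a large 0 h difference will tend to show a smaller one later. The change in the line difference, on the log2 scale, was -2.17 for NAS1 (adjusted p = 0.0107), -2.18 for MT1B (0.0159), -2.17 for GH3.2 (0.0215), -2.21 for DREB1B (0.0119), -1.54 for AGO18 (0.011) and -1.94 for WRKY71 (0.00566). It was -1.75 for NAAT1 (0.0152), -1.32 for HOX1 (0.00432), -0.45 for EIL1 (0.0232), -1.04 for GLN1-2 (0.0281), -2.10 for PP2C61 (0.00432), -1.77 for SAP11 (0.00525), -1.70 for COPT1 (0.00411) and -0.94 for BZIP50 (0.0367). For EXLA4, lower in NIL-Bph6 at 0 h, it was 1.68 (0.0149). For SDH3-2 the line difference widened, by 0.72 (0.0347). For LOC4339508 the value was -2.91 (0.0414), but its unfed NIL-Bph6-RNAi signals lie near the bottom of the scale, so no change in size is read from it.

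A signal outside the rice genes also separated the lines. The reporter and marker probe set described above averaged 12.43 ± 0.22 (SD, n = 3) in unfed NIL-Bph6-RNAi and 2.51 ± 1.76 in unfed NIL-Bph6, and on all 18 arrays its lowest RNAi value was 11.85 and its highest NIL-Bph6 value 5.44.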

How the results depend on the processing

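Of the 41 named genes or loci called at 0 h, 11 kept their call in all 17 alternatives other than the 2-fold minimum. The other 30 lost it in at least 1. None of the values of these 41, or of the 28 uncalled genes named by the rule, reversed. The 41 were chosen for being called and the 28 for the lowest p-values of their lists, so reversals were unlikely from the start. Stable directions among other genes cannot be read from this. The 3' to 5' covariate left 177 probe sets called (97 higher, 80 lower), 116 of them called the same way at 48 h, and ended 28 of the 41 calls. Array weights, which gave NIL-Bph6 replicate 1 a weight of 8.14 and replicate 3 one of 0.38, called 5247 (3021 higher, 2226 lower), with 335 and 388 called the same way at 6 h and 48 h against 150 and 198 in the reported fit. With the 0 h groups alone 289 were called (180 higher, 109 lower). With single arrays left out the calls ranged from 225 to 850, the higher ones from 113 to 549 and the lower ones from 100 to 301, while 124 to 149 and 149 to 200 were called the same way at 6 h and 48 h. Centring on the median of the kept probe sets, chosen after seeing the data, called 199 higher and 195 lower, so 50.5% were higher against 61.3%; without NIL-Bph6 replicate 3 it was 48.5%. The replicate block, whose numbers were not taken as pairs, called 448 (270 higher, 178 lower), 402 of them shared with the 460, and ended 8 of the 41 calls. The other alternatives called 358 (the 2-fold minimum) to 487, within 1.5 times of 460. The causes of these moves were not tested. Signals below about 5.78 are imprecise, which limits the size of the largest differences.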
